A study of Mus musculus with 12 samples.

Results

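Zbtb genes encode transcription factors that pair an amino-terminal BTB domain with C2H2 zinc fingers. The BTB domain lets the proteins dimerise and dock to co-repressors such as Ncor1 and Bcor, while the zinc fingers read specific DNA sequences. Members are best known for controlling lymphoid and myeloid development, for binding methylated DNA and for binding telomeres, and many are described as repressors. The members were all genes whose symbol begins with Zbtb in the deposited count tables, apart from 1 that is not analysed here, which gave 40 of 20409 genes. Apart from that 1 gene the rule went by symbol, and it was set with earlier results of these data known. As a check of the name, at least 1 C2H2 finger pattern was found in the annotated proteins of 39 members, with a median of 4 and up to 14 fingers. The exception, Zbtb8os, encodes archease, a cofactor of tRNA ligase, and is named for its place opposite Zbtb8. The BTB domain itself was not searched.

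All libraries came from wild-type diploid mouse embryonic stem cells (mESCs, line AN3-12) carrying a GFP reporter, and each reporter line was a single clone. In the activator screen the reporter was 7xTetO-pMYLPF-Puro-IRES-GFP in a locus on chromosome 15, whose minimal promoter gives little GFP by itself, and cells positive for GFP were sorted. In the repressor screen it was pEF1-BFP-7xTetO-pPGK-Puro-IRES-GFP in the same locus, and cells negative for GFP were sorted. The third screen looked for regulators acting after transcription (PTGR, post-transcriptional gene regulators). Its reporter was Puro-IRES-GFP-10xBoxB at random sites, and cells of low GFP were sorted repeatedly before the boxB sites were removed with Cre and cells of restored GFP were kept. Every cell population, unsorted ones included, had been transduced with the ORFtag cassette and selected with G418. The cassette expresses a tag (TetR in the first 2 screens, the λN peptide in the third) followed by a splice donor, so that an insertion upstream of or inside a gene splices the tag onto the next exon and makes an amino-terminal fusion. Each screen had 2 sorted and 2 unsorted replicates, and the 6 unsorted libraries were summed as the background.

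The sorted libraries held 14705 to 60980 insertions within 200 kb of the exon to which they were assigned, and the unsorted ones 54088 to 233799. The files hold positions in genomic DNA, so neither the level of a fusion protein nor the markers of mESCs could be read from them. Enrichment is given as a log2 odds ratio, sorted over background, with its standard error from counting alone. A gene was called when a one-sided Fisher's exact test over all genes with at least 3 sorted insertions gave a Benjamini-Hochberg adjusted p below 0.001 and the log2 odds ratio was at least 1. The odds ratio is relative to all insertions of a library, so insertions at called genes lower the value of every other gene. Called genes held 34.2% of the sorted insertions in the activator, 54.8% in the repressor and 5.07% in the PTGR screen. The median log2 odds ratio of all genes with at least 3 expected sorted insertions was -0.73 in the activator, -1.38 in the repressor and -0.13 in the PTGR screen. With called genes left out of the totals, values rose by 0.59, 1.10 and 0.06.

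The results turned on 4 members, and the splice acceptors to which most of their sorted insertions were assigned are shown first. By that assignment they define what would be fused to the tag. The study mixed cassettes of all reading frames. Transcripts were not read here, so neither the use of an acceptor nor an in-frame fusion was observed. Coding sequence left by an insertion means, below, that from the assigned exon on. Each run holds 20 intron bases and 10 exon bases of the GRCm38 genome in the direction of transcription, with the acceptor AG in capitals.
Zbtb11 exon 2, chr16:55980575-55980604, + strand: gttttgttttttgactgaAGgtatattaaa
Zbtb32 exon 2, chr7:30591956-30591985, − strand: ttctcccttccccttcacAGgccagagagt
Zbtb3 exon 2, chr19:8802954-8802983, + strand: ttactgtcctttcttcccAGggagtcagtg
Zbtb38 exon 6, chr9:96689020-96689049, − strand: ccatttgtttcttgtttcAGatgacagtca
Zbtb38 exon 5, chr9:96718300-96718329, − strand: gcactttcatcttctcttAGatcttgatat
Zbtb38 exon 2, chr9:96751374-96751403, − strand: ttttaaatataattttacAGaccgagctgt

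Without sorting, the cassette reached nearly the whole family. The background held an insertion for 39 of 40 members (97.5%), against 89.5% of all genes, and 24 members had insertions in each of the 6 unsorted libraries. The median was 22.5 background insertions per member and 15 per gene overall. Zbtb22 had none in any library and Zbtb9 had 2, so little can be said of either. Zbtb48, which binds telomeric repeats, had 6, and Zbtb42 and Zbtb18 had 5 each. The 5 members with the most insertions held 54.0% of the 3648 in the family.

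**Figure D1:**
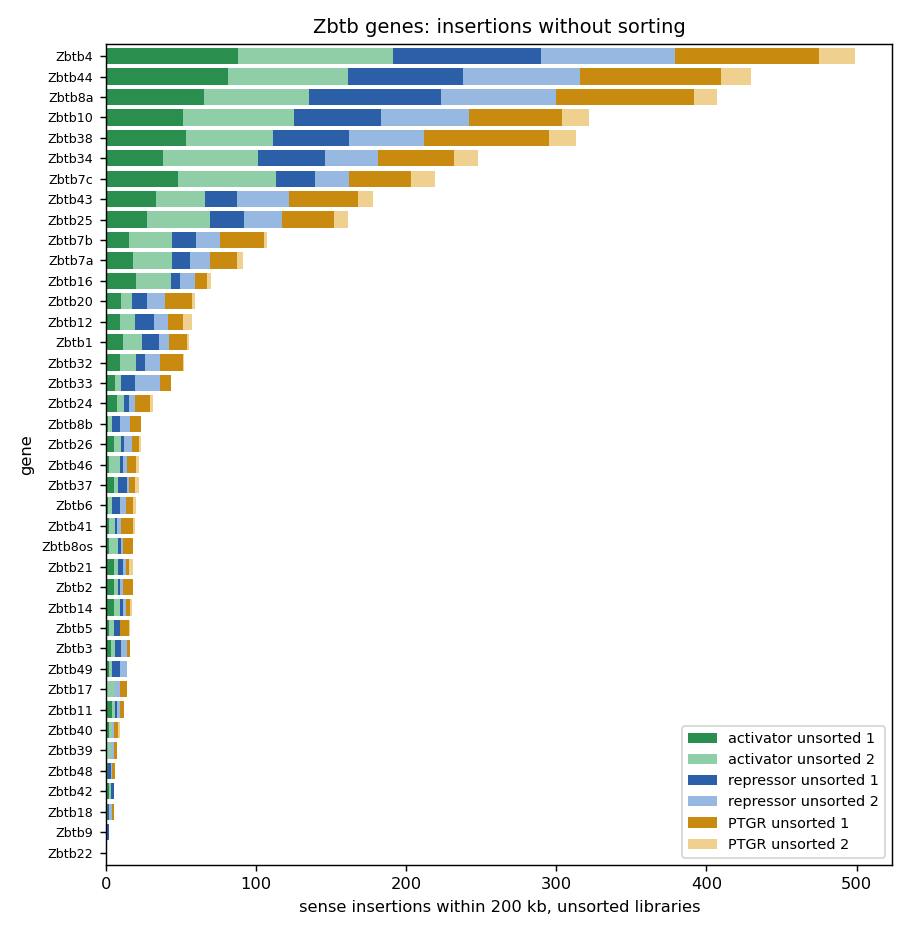
Sense insertions within 200 kb of each Zbtb gene in the unsorted libraries (x axis, number of insertions), stacked by library, with 1 bar per gene. Zbtb4 had 499, the highest number, while Zbtb22 had 0.

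Among these 5, Zbtb4, a reader of methylated DNA, had 88 and 103 insertions in the activator, 99 and 89 in the repressor and 96 and 24 in the PTGR unsorted replicates. Zbtb44 had 81 and 80, 77 and 78, and 94 and 20 in the same order. Zbtb8a had 65 and 70, 88 and 77, and 92 and 15. These libraries thus gave similar numbers apart from PTGR unsorted replicate 2, the shallowest. Zbtb10, which binds variant telomeric repeats, had 51 and 74, 58 and 59, and 62 and 18. Zbtb38 had 53 and 58, 51 and 50, and 83 and 18.

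None of the 5 was called in any screen. Their sorted insertions in replicates 1 and 2 of the activator, repressor and PTGR screens were 4 and 2, 5 and 0, and 27 and 27 for Zbtb4. They were 6 and 2, 6 and 2, and 25 and 15 for Zbtb44, and 2 and 1, 7 and 7, and 18 and 21 for Zbtb8a. They were 4 and 2, 3 and 1, and 21 and 15 for Zbtb10. Zbtb38 is described with the repressor screen.

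The activator screen asked which tagged proteins raise GFP from a silent promoter. Insertions at Zbtb11 and Zbtb32 were more frequent in sorted cells than in the background, and no other member passed the test. At least 3 sorted insertions were found for 12 members, of which 2 were called. Over all genes, 132 of 2842 tested (4.64%) were called.

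Zbtb11 is a large family member whose loss impairs neutrophil development in zebrafish. It had 7 and 8 insertions in the activator sorted replicates and 12 in the background, where the 6 libraries held 4, 2, 1, 2, 3 and 0. Per 10000 insertions of a library this was 4.02 and 5.44 after sorting (4.73 ± 1.00, SD, n = 2), against 0.104 ± 0.0763 (SD, n = 6) without. Both sorted replicates lay above every unsorted library. Its log2 odds ratio of 5.32 ± 0.56 (adjusted p = 7.26e-15, Fisher's exact test) was the highest of the family, and Zbtb11 was also called in each sorted replicate alone. In the other screens it had 0 and 2 insertions in the repressor and 1 and 1 in the PTGR sorted replicates, too few to test. The difference between its activator and PTGR changes was 4.42 on the log2 scale by edgeR, with an adjusted p of 0.249, and against the repressor screen it was 1.85 with an adjusted p of 0.725. An enrichment limited to the activator screen was therefore not shown.

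The gene (ENSMUSG00000022601) spans chr16:55973883-56008913 on the + strand and encodes 1050 residues with 12 C2H2 fingers. Of its 15 activator sorted insertions, 13 were assigned to exon 2, against 7 of 12 in the background. A splice to exon 2 would join the tag behind the first 310 coding bases, so that 90.2% of the coding sequence and all 12 fingers would remain. Upstream of the gene lay 10 of the 15. Of the 8 insertions in replicate 2, those at 6281 and 6282 bp from exon 2 lay within 10 bp of each other. So did those at 7621 and 7622 bp. With such neighbours counted as 1, the log2 odds ratio was 5.18 and the gene was still called.

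Zbtb32, a repressor in T and B lymphocytes, had 9 insertions in activator sorted replicate 1 and 1 in replicate 2. The background held 52, with 9, 11, 6, 10, 15 and 1 in the 6 libraries. Per 10000 insertions the sorted replicates had 5.17 and 0.680, and the unsorted libraries ran from 0.185 to 0.642. Both sorted replicates were above all unsorted ones, the second only just. This gave a log2 odds ratio of 2.61 ± 0.50 (adjusted p = 3.86e-04, Fisher's exact test). The call rested on replicate 1, since without it the log2 odds ratio was 0.42 from 1 insertion, and it was also lost against the activator unsorted libraries alone, where the log2 odds ratio was nearly the same at 2.58 and the adjusted p was 0.00122. In the repressor sorted libraries Zbtb32 had 0 of 37470 insertions, which allows up to 0.801 per 10000, and a fall below the background was not detectable at this depth. In the PTGR sorted replicates it had 3 and 0.

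The gene (ENSMUSG00000006310) lies at chr7:30589681-30598909 on the − strand and encodes 465 residues with 3 fingers. All 10 activator sorted insertions lay upstream of it, 7361 to 11659 bp from exon 2, and left the whole coding sequence behind the tag. In the background 49 of 52 insertions were assigned to the same exon.

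**Figure D2:**
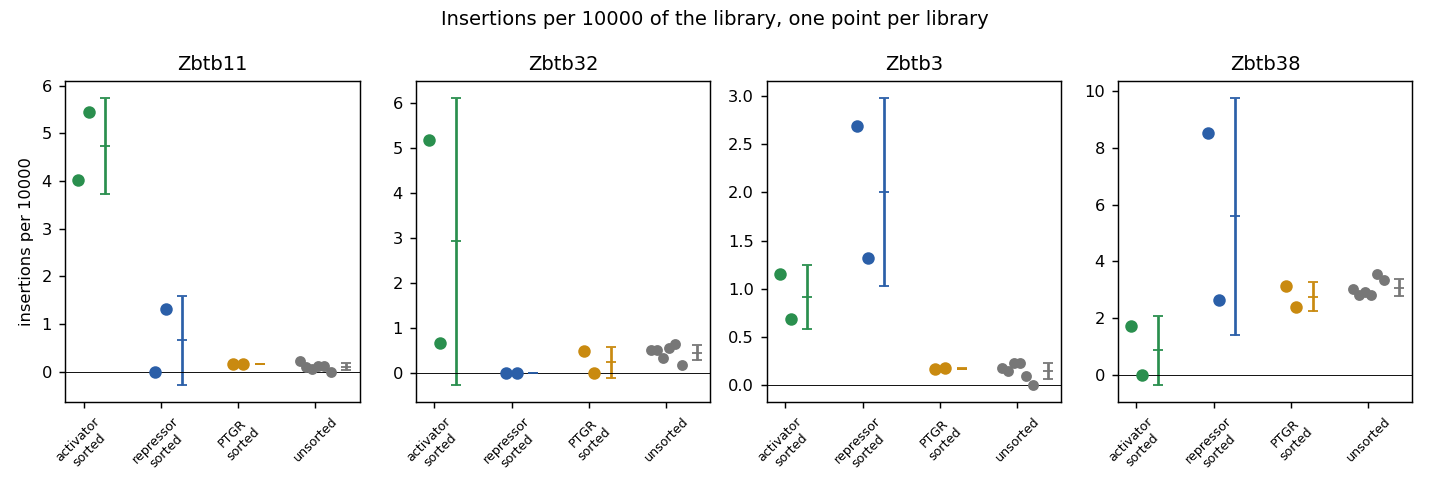
Insertions per 10000 insertions of the library (y axis) at 4 Zbtb genes, with a point per library and, beside the points, the mean and SD (n = 2 sorted, n = 6 unsorted). Both activator points of Zbtb11 (4.02 and 5.44) lie far above its unsorted points, whereas the paired points of Zbtb32 and Zbtb38 are spread widely.

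Among members with at least 3 sorted insertions, the next by log2 odds ratio in the activator screen were Zbtb3, Zbtb25 and Zbtb7b, and none passed the test. Zbtb3 had 2 and 1 after sorting against 16 without (2.58 ± 0.91, adjusted p = 0.262, Fisher's exact test). Both of its replicates lay above all unsorted libraries. Zbtb25 had 3 and 4 against 161 (0.47 ± 0.56), and Zbtb7b, which directs T cells to the CD4 lineage, had 1 and 2 against 107 (-0.16 ± 0.84). In all, both sorted replicates lay above every unsorted library for 3 members with background insertions, Zbtb11, Zbtb32 and Zbtb3, against 2.92% of all such genes.

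The repressor screen asked which tagged proteins silence an active promoter. Zbtb3 was the only member called by the test, with Zbtb38 close to the threshold. At least 3 sorted insertions were found for 11 members, of which 1 was called, and over all genes 192 of 2346 tested (8.18%) were called.

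Zbtb3, a member of little known function, had 6 and 2 insertions in the repressor sorted replicates and 16 in the background, where the 6 libraries held 3, 3, 4, 4, 2 and 0. Per 10000 insertions the sorted replicates had 2.69 and 1.32 (2.01 ± 0.975, SD, n = 2), and the highest unsorted library had 0.230. The groups did not overlap. Fisher's exact test gave a log2 odds ratio of 3.77 ± 0.62 (adjusted p = 1.49e-05). Without sorted replicate 1 it was 3.07 from 2 insertions, too few to test. Both PTGR sorted replicates had 1 insertion, at 0.164 and 0.171 per 10000, within the range of the unsorted libraries.

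Zbtb3 (ENSMUSG00000071661) occupies chr19:8802555-8804846 on the + strand and codes for 518 residues with 2 fingers in 1 exon. All 8 repressor sorted insertions lay upstream, 3083 to 6110 bp from exon 2, and left the full coding sequence. The 16 background insertions were spread from 994 to 29952 bp. One position was found in both sorted replicates, and with it counted once the log2 odds ratio was 3.75. Of the 8 insertions, 2 lay inside Polr2g, a neighbouring gene.

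**Figure D3:**
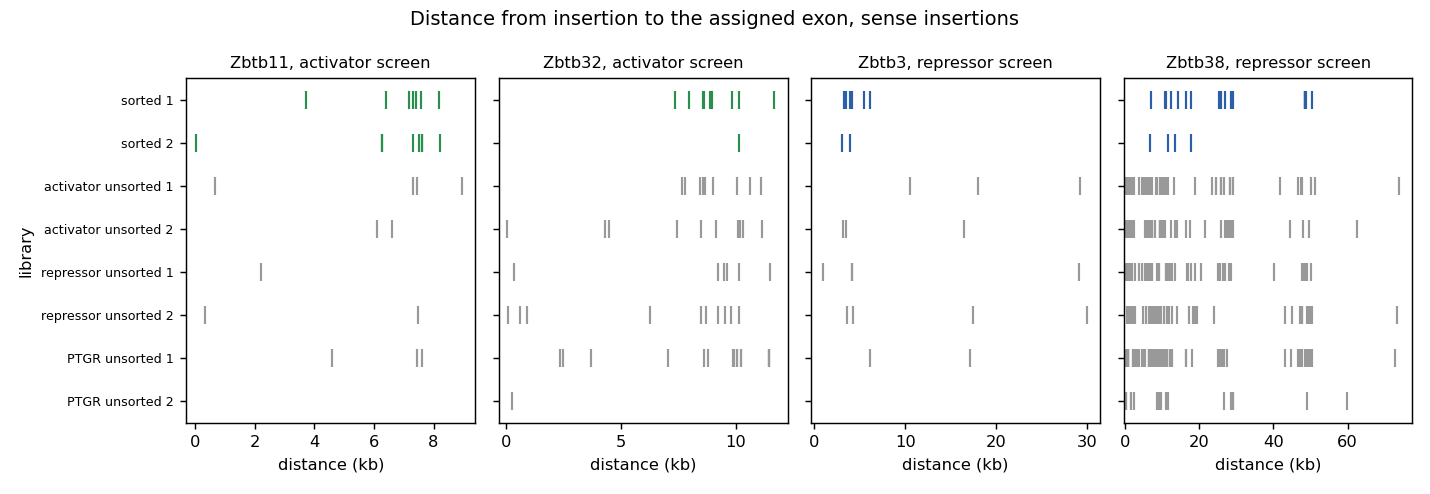
Distance in kb from each insertion to the exon it was assigned to (x axis), by library (rows), for 4 Zbtb genes in the screen where each had its highest log2 odds ratio, with sorted libraries in colour and unsorted in grey. The 8 sorted insertions of Zbtb3 lie between 3083 and 6110 bp, and all but 1 of the Zbtb32 sorted insertions are in replicate 1.

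Zbtb38, which binds methylated DNA, had the most repressor sorted insertions of the family. Replicate 1 had 19 and replicate 2 had 4, with 313 in the background. Per 10000 insertions these were 8.53 and 2.63, and the unsorted libraries ran from 2.79 to 3.55, so that 1 replicate lay above and the other below all of them. Its log2 odds ratio of 1.00 ± 0.31 (adjusted p = 0.0226, Fisher's exact test) was not called, whereas with called genes left out of the totals it was 2.11 and called (adjusted p = 2.75e-07). In replicate 1 alone it was 1.48, with an adjusted p of 8.51e-04, and in replicate 2 alone it was -0.22. Fitted against the unsorted libraries of the screen with edgeR, the log2 fold change was 1.9 and the adjusted p was 1.01e-04, a call at 0.05 that 200 of 2779 genes (7.2%) received. DESeq2 gave 1.40 and 0.141.

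The change at Zbtb38 also differed between screens. Only 10 members had enough insertions for this test, and Zbtb38 alone passed it. In the activator sorted replicates it had 3 and 0 insertions, and in the PTGR sorted replicates 19 and 14. The activator change was lower than the repressor change by edgeR, with a difference of -3.20 on the log2 scale (adjusted p = 0.00342), a call that 8.21% of 2569 genes received. The repressor change was higher than the PTGR change by 2.17 (adjusted p = 0.00327), as 6.46% of genes did in either direction. Between the activator and PTGR screens the difference was -1.03 (adjusted p = 0.816), and 3.93% of genes were called. Without repressor sorted replicate 1 the first 2 differences were -1.75 and 0.58, with adjusted p of 0.579 and 0.760. Without activator sorted replicate 2 the first was -2.42 with an adjusted p of 0.0736.

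The gene (ENSMUSG00000040433) spans chr9:96682770-96752831 on the − strand, and its 1197 residues with 9 fingers are encoded in 1 exon. Every insertion therefore left the full coding sequence, whichever exon it was assigned to. Exon 6 received 12 of 23 repressor sorted insertions (52.2%), against 64 of 313 (20.4%) in the background and 7 of 33 (21.2%) in the PTGR sorted libraries. By replicate these were 9 of 19 and 3 of 4. Exon 5 received 5 of 23, against 151 of 313. In replicate 1, the insertions at 48498, 48500, 48502 and 48504 bp from exon 2 lay within 10 bp of each other. The position of 1 insertion was shared by both replicates. Insertions of 1 replicate are not independent of each other, so these shares were not tested.

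**Figure D4:**
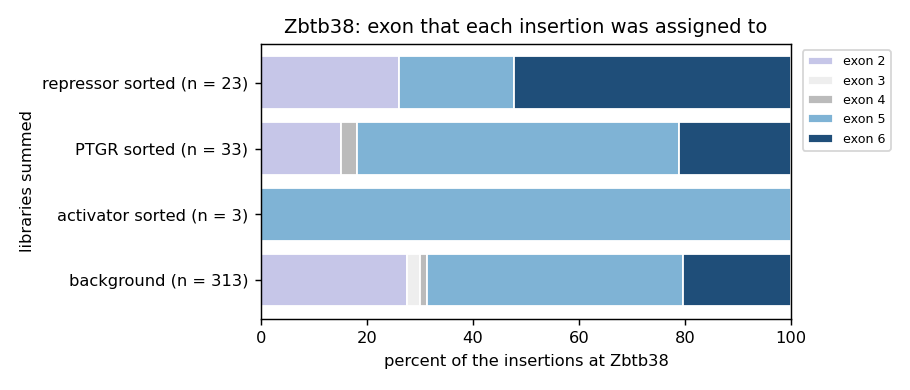
Percent of the insertions at Zbtb38 (x axis) assigned to each of its exons, for the summed background and the summed sorted libraries of each screen, with the number of insertions in brackets. Exon 6 holds 52.2% in the repressor sorted libraries and 20.4% in the background.

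The next tested members in the repressor screen were Zbtb1, Zbtb33 and Zbtb12, none of which passed. Zbtb1, which lymphocyte precursors need, had 3 and 1 after sorting against 55 without (0.99 ± 0.75). Zbtb33, also called Kaiso and a reader of methylated DNA, had 2 and 1 against 43 (0.93 ± 0.86), and Zbtb12 had 2 and 1 against 57 (0.52 ± 0.85). Both sorted replicates lay above every unsorted library for Zbtb1, Zbtb3 and Zbtb24, which is 3 members, against 3.17% of all genes with background insertions. Zbtb24 had 1 and 1 sorted insertions, or 0.449 and 0.658 per 10000, and its highest unsorted library had 0.428. At this depth 1 insertion per replicate can place a member above, so such counts alone do not show a rise.

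The PTGR screen asked which proteins lower GFP from the mRNA when tethered behind its coding part. No member was called, although its libraries were deeper and 27 members had at least 3 sorted insertions. Over all genes, 62 of 9303 tested (0.666%) were called. With Fisher's exact test at an unadjusted p below 0.05, 3 members passed, Zbtb18, Zbtb49 and Zbtb7b (11.1% of those tested, against 10.6% of all genes), and edgeR and DESeq2 also called 0.

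Zbtb18, a repressor in developing neurons, had 2 and 2 after sorting against 5 without (2.77 ± 0.97, adjusted p = 0.233, Fisher's exact test). Zbtb49 had 3 and 2 against 14 (1.61 ± 0.75, adjusted p = 0.428), and Zbtb17, the Myc partner Miz-1, had 0 and 4 against 14 (1.29 ± 0.82, adjusted p = 0.583). Zbtb7b had 13 and 7 against 107 (0.68 ± 0.35). For Zbtb18, Zbtb49, Zbtb26 and Zbtb8os, which make 4 members, both sorted replicates lay above all unsorted libraries, against 4.87% of all genes with background insertions.

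**Figure D5:**
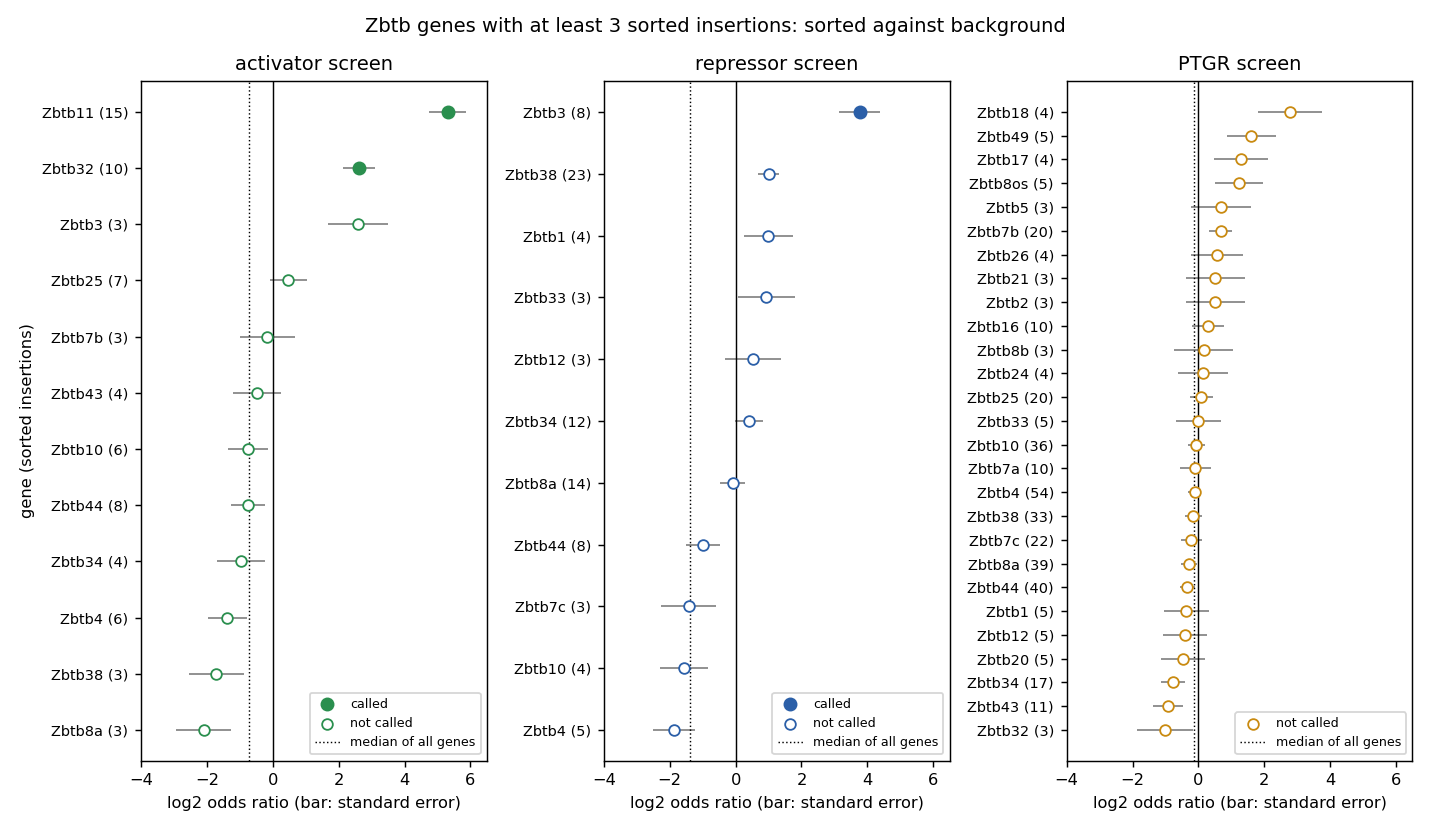
Log2 odds ratio of sorted against background insertions (x axis) with its standard error for each Zbtb gene with at least 3 sorted insertions (number in brackets), by screen, with called genes filled. The dotted line is the median of all genes with at least 3 expected insertions. Zbtb11 (5.32), Zbtb32 (2.61) and Zbtb3 (3.77) are filled.

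In the opposite direction, no member was called as having fewer insertions after sorting, with 10, 11 and 18 members having the 3 expected insertions that the test needed in the activator, repressor and PTGR screens. Over all genes this test called 0% of 3119, 0.983% of 3562 and 0.139% of 7886. An unadjusted p below 0.05 by Fisher's exact test was found for 4 members after activator, 6 after repressor and 2 after PTGR sorting, which is 40.0%, 54.5% and 11.1% of those tested against 18.9%, 41.6% and 8.67% of all genes. The lowest adjusted p was that of Zbtb4 in the repressor screen, 0.00844, with 5 and 0 sorted insertions where 18.3 were expected (-1.87 ± 0.65). Zbtb8a was lowest in the activator screen, with 3 where 12.8 were expected (-2.09 ± 0.84, adjusted p = 0.115). Both values lie below the medians of all genes given above. Of the 39 members with background insertions, 16, 14 and 2 had both sorted replicates below every unsorted library in the 3 screens. Over all genes with background insertions the shares were 21.6%, 29.0% and 5.54%. A member without sorted insertions counts as below wherever every unsorted library held an insertion, as Zbtb32 did in the repressor screen. These counts alone therefore do not show a fall.

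Grouped by known role, the 10 members with roles in lymphoid and myeloid development held 1 call, Zbtb32. In the activator, repressor and PTGR screens 3, 1 and 9 of the 10 were tested. Over all genes tested, 4.64%, 8.18% and 0.666% were called. The list leaves out Zbtb11, named above for its part in neutrophil development, so its number of calls depends on how members were assigned. Its 10 members had 662 background insertions and 26, 11 and 82 after activator, repressor and PTGR sorting. Zbtb7a, a regulator of haematopoietic fate also known as LRF, had 1 and 1, 0 and 0, and 4 and 6 sorted insertions against 91. The 0 of 37470 in the repressor screen allows up to 0.801 per 10000, against 0.890 in the background. Fisher's exact test for fewer insertions gave an adjusted p of 0.103 there, so a fall was not shown. Zbtb16, which innate-like T cells need and which is also known as PLZF, had 0 and 0, 0 and 1, and 8 and 2 against 70. Zbtb20 had 0 and 0, 0 and 0, and 3 and 2 against 59. Zbtb46, a marker of classical dendritic cells, had 2 and 0 after activator sorting against 22.

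Of the 3 readers of methylated DNA, 2, 3 and 3 were tested in the activator, repressor and PTGR screens, and none was called. Their 855 background insertions were mostly those of Zbtb4 and Zbtb38. They had 9, 31 and 92 sorted insertions, of which Zbtb38 gave 23 of the 31 in the repressor screen. Of the telomere binders only Zbtb10 could be tested, and it was not called. Zbtb48 had no sorted insertion in any screen. Zbtb10 had log2 odds ratios of -0.75 ± 0.59, -1.56 ± 0.73 and -0.07 ± 0.25.

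The 24 other members, of which 6, 6 and 13 were tested in the activator, repressor and PTGR screens, held the calls of Zbtb11 and Zbtb3. Zbtb34 had 2 and 2, 8 and 4, and 10 and 7 sorted insertions against 248, with log2 odds ratios of -0.96 ± 0.73, 0.40 ± 0.43 and -0.77 ± 0.36. Its neighbour Zbtb43 had 3 and 1, 0 and 1, and 6 and 5 against 178. Zbtb18 also had 2 and 0 after activator sorting, too few to test. No sorted insertion was found in any screen for 4 members, Zbtb9, Zbtb22, Zbtb42 and Zbtb48, whose background numbers were 6 at most.

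Among members with at least 3 expected sorted insertions, the log2 odds ratio was above 0 for 1 and below 0 for 9 in the activator screen, with a median of -0.86. In the repressor screen 2 were above and 9 below (median -1.56), and in the PTGR screen 4 and 14 (median -0.18). With called genes left out of the totals, 3, 4 and 5 members lay above 0 and the medians were -0.27, -0.39 and -0.12, where those of all genes were -0.11, -0.11 and -0.06. The directions of single members near 0 therefore depend on the scaling. As a share of a library's insertions, the members together made up 0.328% and 0.190% in the activator, 0.310% and 0.204% in the repressor and 0.330% and 0.318% in the PTGR sorted replicates. The unsorted libraries ran from 0.337% to 0.375%, above all 6 sorted ones. These shares also depend on the scaling, since called genes are part of the totals. They held 34.2%, 54.8% and 5.07% of the activator, repressor and PTGR sorted insertions, so lower shares here do not show a fall of the family.

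Related genes were counted in the same way. Of 8 BTB zinc finger genes with other symbols, 2, 2 and 4 had enough sorted insertions for the test in the activator, repressor and PTGR screens. None of these was called, and Bcl6, Hic1, Gzf1 and Zfp131 could not be tested in any screen. Of 4 BTB proteins of the nucleus without C2H2 fingers, 3 were tested in the repressor screen and Nacc1 was called. It had 16 and 3 insertions there against 94 (2.46 ± 0.36). Of 12 partners of BTB domains, 2, 7 and 7 were tested in the activator, repressor and PTGR screens. Only Ncor1 and Bcor were called, both in the repressor screen, where 8.18% of all genes tested were. Ncor1, the co-repressor that recruits Hdac3, had 256 and 136 insertions against 998 (3.44 ± 0.09), and Bcor had 11 and 2 against 81 (2.13 ± 0.43).

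The place of the cassette in the family was compared with and without sorting, as a description. Of 3648 background insertions at members, 68.0% lay upstream of the gene, 84.3% were assigned to exon 2, 83.6% left the whole coding sequence and, Zbtb8os aside, 97.3% left every finger. The corresponding values were 76.5%, 90.6%, 69.4% and 98.8% in the activator sorted libraries, where Zbtb11 alone gave 15 of 85 insertions. They were 63.0%, 80.0%, 94.0% and 100% of 100 insertions in the repressor and 68.7%, 84.2%, 82.9% and 97.9% of 387 in the PTGR sorted libraries. The share that left the whole coding sequence was thus lowest after activator and highest after repressor sorting, and in each set nearly all insertions left every finger. The activator value leans on Zbtb11, of whose 15 insertions 0 left the whole coding sequence. The median distance to the assigned exon was 27986 bp in the background, 11659 bp in activator, 16482.5 bp in repressor and 29151 bp in PTGR sorted cells. Insertions beyond 50 kb made up 31.7%, 22.4%, 14.0% and 34.9% in the same order. Since a few members gave many of the sorted insertions, these differences were not tested. Some members are neighbours, and assignment to the nearest exon splits their insertions. Zbtb6 and Zbtb26 overlap on 1 strand, Zbtb34 and Zbtb43 lie 18963 bp apart on 1 strand, and Zbtb1 and Zbtb25 lie 664 bp apart on opposite strands.

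Insertions in the opposite orientation were used as a control, because a cassette pointing away from a gene cannot tag it. With the strand reversed, the members called above had too few sorted insertions for the test in the screen of their call. Zbtb32 had 0 after activator sorting against 37 in the background, and Zbtb3 had 0 after repressor sorting against 25. Few sorted insertions would be expected from such background numbers, so a 0 alone shows no fall. Zbtb11 had 2 after activator sorting against 9 in the background (2.92 ± 1.13). Of 10 members tested in the repressor screen 1 was called, where 5.61% of all genes were. In the activator and PTGR screens 0 of 12 and 0 of 23 were, against 3.14% and 0.5% of all genes by Fisher's exact test. The call was Zbtb21, with 14 and 10 reversed insertions in the repressor sorted replicates and 15 in the background (5.71 ± 0.47, adjusted p = 1.32e-25). It had 0 sense insertions there. As mapped, all 24 were assigned to B230307C23Rik, a gene on the other strand, which itself had 18 and 10 after sorting against 28 without (4.77 ± 0.39, adjusted p = 1.60e-24).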

How the data were processed

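Insertion sites of the ORFtag cassette were mapped by inverse PCR and sequencing of genomic DNA. The authors trimmed reads with Trim Galore 0.6.0, aligned first mates to mm10 (GRCm38) with Bowtie2, and used SAMtools 1.9 to drop duplicated and poorly mapped reads. They assigned each insertion to the closest downstream exon of a protein-coding GENCODE transcript, first exons left out. The authors deposited 24 insertion lists (position, exon and distance in bp, with the strand as mapped or reversed, and other values that are no measurement) and 3 tables of insertion counts per gene pooled over replicates, which also hold their own odds ratios and p-values. Those test columns were not used. The deposited counts of the pooled tables equalled those made here for 40 of 40 members in the background, in activator and in repressor sorted cells and for 26 of 40 in PTGR sorted cells, where repeated lines had been counted.

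Here each position (chromosome, coordinate, strand) within 200 kb was counted once per library. All positions of the repressor unsorted lists and 12.7% of those of PTGR sorted replicate 2 were listed more than once. Fisher's exact tests were run in scipy and the fits in edgeR 4.0.16 and DESeq2 1.42.0 on the same counts of all genes. A difference between screens was tested by edgeR's quasi-likelihood over 12 libraries and called at an adjusted p below 0.05. The scripts were tested on simulated data. Splice acceptors, coding sequence and fingers are those of GENCODE vM21. Samples were grouped by their labels, and the study calls the replicates biological. Fisher's exact test does not use the spread between them, and 2 against 2 libraries cannot go below p = 0.333 in a two-sided exact permutation test. A count of 0 was taken to allow 3. Errors and limits cover counting only, since PCR copies and sister cells are not independent. The members, role groups and comparison lists were chosen with earlier results of these data known. Given in full are members called in a screen, members that reached a log2 odds ratio of 1 at an adjusted p under 0.05, the next 3 tested members per screen and the 5 with most background insertions. Other named members were chosen after their values were seen.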

Additional observations from a re-analysis of the deposited data

Results flagged for a closer look

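Zbtb38 changed differently between screens by the edgeR test of the difference, with -3.20 on the log2 scale for activator minus repressor (adjusted p = 0.00342) and 2.17 for repressor minus PTGR (adjusted p = 0.00327). Both differences rest on repressor sorted replicate 1, which held 19 of the 23 repressor sorted insertions.

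At Zbtb21, 24 insertions by the reversed assignment were found in the repressor sorted libraries, above the 15 of the background, which is a signal in lists that the sense comparisons of members did not use. The same insertions were sense insertions of B230307C23Rik and point away from Zbtb21, which they therefore cannot tag. Whether the product of B230307C23Rik acts on the reporter was not tested.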

How the results depend on the processing

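Zbtb11 was called under every alternative run. The count of called members in the activator screen was 1 rather than 2, with Zbtb32 lost, against the screen's own unsorted libraries, with at least 1 sorted insertion and by edgeR with or without the replicate block. Leaving out 1 library gave 1 to 2 there, the 1 without activator sorted replicate 1. In the repressor screen 0 members were called with at least 10 sorted insertions. There 2 were called, Zbtb3 and Zbtb38, at an adjusted p below 0.05, with totals that leave out called genes and by edgeR with or without the replicate block. Over all genes, edgeR without the block called 200 of 2779 (7.2%), and totals without called genes raised values in this screen by 1.10. The share of all genes called in the other settings is not given here. Leaving out 1 library gave 0 without repressor sorted replicate 1 and 2 without replicate 2. Members differing between screens numbered 1 to 2 when a sorted library was left out, Zbtb32 being added without activator sorted replicate 2 or PTGR sorted replicate 1, and without repressor sorted replicate 1 the 1 member was Zbtb4 and not Zbtb38. The log2 odds ratio of Zbtb38 in the repressor screen ran from -0.22 to 1.48 with 1 library left out. With totals that leave out called genes it was 2.11 (adjusted p = 2.75e-07). Zbtb32 had too few insertions for edgeR's filter, and DESeq2 called it (adjusted p = 0.00271). The counts of members called in the PTGR screen, of members with fewer insertions and of members with a background insertion stayed within 1.5 times under all alternatives. Merged and shared positions, and all alternatives for Zbtb38 and Zbtb21, were chosen after seeing the data. Under the replicate block the edgeR log2 fold changes were 5.16 for Zbtb11, 3.92 for Zbtb3 and 1.84 for Zbtb38. The labels do not say whether a number marks a shared transduction, and the check of pairing differed between screens: deviations of same-numbered sorted and unsorted libraries correlated at 0.0748, -0.0117 and 0.279 in the activator, repressor and PTGR screens. Of the members' positions, PTGR sorted replicates 1 and 2 shared 43 and 10 with the unsorted library of the same number against 3 and 5 with the other, activator ones 4 and 6 against 2 and 0, and repressor ones 6 and 0 against 5 and 2. With each other, the repressor sorted replicates shared 8 of their 69 and 31 member positions. The PTGR ones shared 2 of 201 and 186, and the activator ones 0 of 57 and 28. The cause of these changes was not tested. Depth limits the low members most, since 19 members in each of the activator and repressor screens had no sorted insertion.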
